A study of Rattus norvegicus with 12 samples.

Results

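The endoplasmic reticulum (ER) chaperones and quality control genes are 10 genes chosen by name from the platform annotation of a rat expression array: Hspa5, Calr, Canx, Hsp90b1, Pdia3, Pdia4, Pdia6, Edem1, Herpud1 and Dnajc3. Of the 12978 genes with a named probe, 8 are members, and Hsp90b1 and Pdia6 have no probe under these names and were not measured here. Each of the 8 has 1 named probe, which was detected (detection p under 0.02) on 12 of 12 arrays, so all 8 passed the filter and are among the 7620 genes and unnamed probes (features) tested. The arrays hold RNA from xenografts of C6, a rat glioma cell line, grown under the skin of athymic female nude mice (SWISS nu+/nu+) and profiled once per tumor. The 6 MNF-treated mice received (R,R')-4-methoxy-1-naphthylfenoterol (MNF), an agonist of the beta-adrenergic receptor, at 2 mg/kg by intraperitoneal injection over 19 days, starting 3 days after inoculation, and the 6 control mice received its vehicle, ascorbic acid in saline. Each group had 3 tumors in cohort 1 and 3 in cohort 2, and the age of the mice is not given in the sources used here. The tumors come from 1 cell line in an immune-deficient host, whose stroma, vessels and adjacent muscle are mouse tissue, and signal from mouse RNA on the rat probes cannot be told apart from rat signal here. In whole tumors, fewer cells of a type and less RNA per cell cannot be told apart either.

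Proteins that enter the ER are bound by chaperones until they have folded. Hspa5 (BiP, GRP78) and Hsp90b1 (GRP94) are the Hsp70 and Hsp90 of the ER lumen, Dnajc3 is a J-domain cochaperone of Hspa5, and Calr and Canx are lectins that hold glycoproteins carrying a trimmed sugar. Pdia3, Pdia4 and Pdia6 are protein disulfide isomerases, which make and exchange disulfide bonds, and Pdia3 works together with Calr and Canx. Edem1 passes misfolded glycoproteins on to degradation, and Herpud1 is a membrane protein of the degradation complex. When unfolded proteins accumulate, the sensors Ern1, Eif2ak3 and Atf6 start the unfolded protein response, in which Atf6 and Xbp1 raise transcription of these genes through ER stress elements in their promoters.

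The promoters are shown because several members share this element. It was already known from ER chaperone genes such as these, so the counts below are a description and not a test. RefSeq promoters of the rat assembly GRCr8 (250 bases before to 50 after the annotated start) were held for 8 members, all but Pdia3 and Pdia6, and were searched on both strands. The type I element is CCAAT, 9 bases of any kind and CCACG, and it contains a CCAAT box. It was found in 5 of the 8 members' promoters (62.5%), against 22 of 33469 promoters in all (0.0657%). The type II element is ATTGG, 1 base of any kind and CCACG, found in 1 of the 8 (12.5%) and in 17 of all promoters (0.0508%). The CCAAT box alone was in 8 of the 8 and in 37.5% of all promoters, and the XBP1 element TGACGTGG was in 0 of the 8 and in 0.595% of all. The elements are in capitals below, with up to 20 flanking bases, written 5′ to 3′ on the gene's strand.
Hspa5, chr3:38452953-38453011, plus strand: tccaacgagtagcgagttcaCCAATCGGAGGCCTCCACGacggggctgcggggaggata
Calr, chr19:40213117-40213173, plus strand, element on the opposite strand: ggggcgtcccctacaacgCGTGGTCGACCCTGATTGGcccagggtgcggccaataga
Canx, chr10:35158049-35158107, minus strand: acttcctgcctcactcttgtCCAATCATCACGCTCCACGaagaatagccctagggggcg
Dnajc3, chr15:102432514-102432572, plus strand: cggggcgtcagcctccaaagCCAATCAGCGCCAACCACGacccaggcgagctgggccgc
Hsp90b1, chr7:23012431-23012489, minus strand: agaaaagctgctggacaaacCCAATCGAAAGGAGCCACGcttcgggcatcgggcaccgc
Hsp90b1, chr7:23012327-23012385, minus strand, element on the opposite strand: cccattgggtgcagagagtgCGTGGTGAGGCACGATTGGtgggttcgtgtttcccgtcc
Herpud1 (type II), chr19:10614801-10614851, minus strand: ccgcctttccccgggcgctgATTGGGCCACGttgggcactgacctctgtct

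The element of Hspa5 lay nearest to its start, with its first base at -43, and those of Calr and Canx lay farthest, at -232 and -230. Hsp90b1 had a pair, at -176 and -72, Dnajc3 had 1 at -133 and Herpud1 its type II element at -124. These letters were not in the windows of Pdia4 and Edem1.

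**Figure D1:**
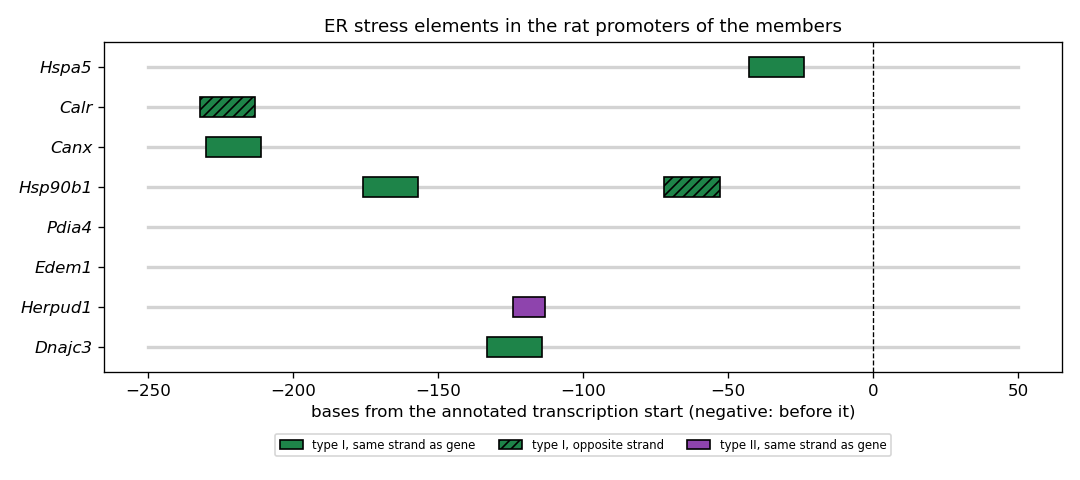
ER stress elements in the RefSeq promoters of 8 member genes, plotted by distance in bases from the annotated start (dashed line), with the searched window in grey. Elements lie between -232 and -25, and no element is drawn for Pdia4 or Edem1.

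Signals are fluorescence intensities, and levels below are log2 signals after Z-normalization, so that 0 is the mean of the detected probes of an array. Each array was also scaled by its own SD, so a difference of 1 is only about 2-fold. The folds given below include this rescaling. Mean signal per array was 500.4 to 858 in the MNF group and 708 to 1062 in the vehicle group, with 8733 to 9562 and 8849 to 9457 probes detected. Hspa5 and Calr were among the brightest probes of the array, at rank 33 and 62 of 22517 by mean signal (33164 and 27603). Pdia3, Dnajc3, Pdia4, Herpud1 and Canx had mean signals between 6135 and 2133, and Edem1 was dim at 197. Levels of different probes are not compared further, since a probe's brightness also depends on its sequence.

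With MNF, 7 of the 8 measured members were above vehicle on average over both cohorts, by 0.11 to 0.38 log2 units, and Canx had a difference of -0.06. Their median was 0.17, against 0.00 for all features, of which 50.2% were above 0. No member passed an adjusted p under 0.05 in limma, and neither did any feature (0 of 7620, percent called 0%), although 609 features had an unadjusted p under 0.05. Among the members, 2 of 8, Hspa5 and Calr, were higher at that unadjusted threshold, where 3.22% of all features were, and 0 of 8 were lower, where 4.78% were. The members' median difference between the cohorts was 0.24, not tested as a group. It ran from 0.12 (Z-normalization over all probes) to 0.37 (neqc) with the scaling, and leaving out 1 tumor gave 0.13 without vehicle-treated tumor 1, 0.14 without MNF-treated tumor 3, 0.16 without vehicle-treated tumor 5 and at most 0.33. In cohort 2, 7 of 8 members were above 0 with a median of 0.31 (48% of features above 0, median -0.01), whereas 5 of 8 were above 0 in cohort 1 with a median of 0.02 (50.1% of features, median 0.00). At an unadjusted p under 0.05, 3 of 8 members were higher in cohort 2 (Hspa5, Calr and Pdia4, 4.62% of features) and 1 of 8 in cohort 1 (Hspa5, 3.82% of features). These counts depended on the scaling: after quantile normalization or neqc they were 0 of 8 over both cohorts, 0 of 8 in cohort 1 and 2 of 8 in cohort 2. They also moved with single tumors. Over both cohorts the count was 4 without vehicle-treated tumor 1 and 1 without MNF-treated tumor 5 or vehicle-treated tumor 4 or 5. In cohort 1 it was 2 without MNF-treated tumor 2. In cohort 2 it was 5 without vehicle-treated tumor 6 and 2 at its lowest, as without MNF-treated tumor 4.

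**Figure D2:**
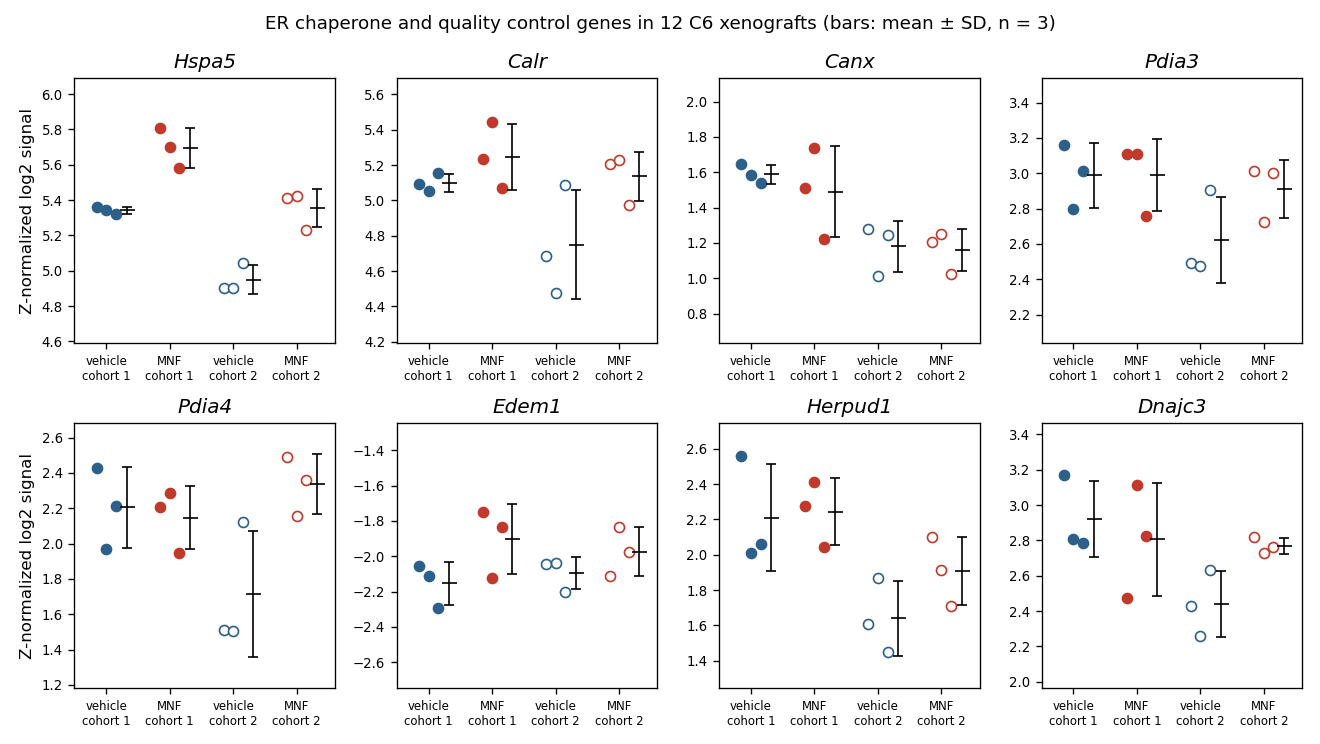
Z-normalized log2 signal of the 8 measured members in each tumor (points; filled, cohort 1; open, cohort 2; blue, vehicle; red, MNF), with the mean and SD of 3 tumors, each panel spanning 1.5 log2 units. In the Hspa5 panel every MNF tumor lies above every vehicle tumor of its cohort, and in most other panels the lowest points are vehicle tumors of cohort 2.

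Hspa5 had the second smallest p of the 7620 features. Its level in cohort 1 was 5.81, 5.70 and 5.58 in the MNF tumors and 5.36, 5.34 and 5.32 in the vehicle tumors. In cohort 2 it was 5.41, 5.42 and 5.23 with MNF and 4.90, 4.90 and 5.05 with vehicle. Thus the MNF tumors were above the vehicle tumors in each cohort without overlap, which held for 31 of all features (0.407%), while the groups overlapped when the cohorts were pooled. The difference over both cohorts was 0.38 (SE 0.075, 1.30-fold; limma, adjusted p = 0.499), and it was 0.35 (SE 0.11) in cohort 1 and 0.40 (SE 0.11) in cohort 2. In an exact permutation test of treatment within cohorts (two-sided, 400 arrangements) it had p = 0.005, the smallest this design can give, and within 1 cohort of 3 against 3 tumors no p can go below 0.1. Its SD within the groups was 0.089, against a median of 0.186 over all features.

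The cohort 1 part of the Hspa5 difference depended on how the arrays were scaled. Unnormalized Hspa5 signals ran from 22298 to 50425 and overlapped between the groups, with the lowest in MNF-treated tumor 1, on the array of the lowest mean signal, and the highest in vehicle-treated tumor 1, on the array of the highest. After quantile normalization, which gives every array the same distribution, the Hspa5 difference was -0.01 in cohort 1 and 0.36 in cohort 2, and 0.18 over both (limma, adjusted p = 0.77; exact permutation test, p = 0.145). Z-normalization over all probes, the form of the deposited scores, gave larger values, 0.60 for Hspa5 in cohort 1 and 0.51 over both, and 0.38 for Calr over both. Median centring without scaling gave 0.24 for Hspa5 and 0.14 for Calr over both cohorts. A comparison chosen after seeing these values was the set of the 100 brightest features, to which Hspa5 and Calr belong. In cohort 1 the median difference of these 100 was 0.34 after Z-normalization, with 96 above 0, and -0.02 after quantile normalization. In cohort 2 it was 0.04 and 0.00. Over both cohorts it was 0.18, with 94 above 0, and -0.01. Hspa5 in cohort 2 lay between 0.28 and 0.42 under all 6 ways of scaling, with no overlap of the groups under any.

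Of the lectin chaperones, Calr had its larger difference in cohort 2 and Canx was near 0 in both. Calr in cohort 2 was 5.20, 5.23 and 4.98 with MNF and 4.69, 4.48 and 5.09 with vehicle, so that vehicle-treated tumor 6 fell within the MNF range. Its difference was 0.39 (SE 0.16; limma, adjusted p = 0.48) in cohort 2 and 0.15 (SE 0.16, adjusted p = 0.77) in cohort 1, where quantile normalization turned it to -0.15. Over both cohorts it was 0.27 (SE 0.11, 1.20-fold; limma, adjusted p = 0.61; exact permutation test, p = 0.05), or 0.11 after quantile normalization (exact permutation test, p = 0.485). The membrane-bound Canx ran from 1.02 to 1.74 in MNF tumors (median 1.23) and from 1.01 to 1.64 in vehicle tumors (median 1.41). Its difference was -0.10 in cohort 1 and -0.02 in cohort 2 (95% interval over both, -0.27 to 0.15).

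Of the disulfide isomerases, Pdia4 had the largest cohort 2 difference of the 8 members. In cohort 2 the MNF tumors were at 2.49, 2.16 and 2.36 and the vehicle tumors at 1.508, 1.504 and 2.124, so the groups did not overlap, except after median centring without scaling, where they did. In cohort 1 they were at 2.21, 2.29 and 1.94 with MNF and at 2.43, 1.97 and 2.21 with vehicle, and the ranges overlapped. The difference was 0.62 (SE 0.18; limma, adjusted p = 0.42) in cohort 2 and -0.06 (SE 0.18) in cohort 1. The difference between the cohorts, 0.68 (95% interval 0.12 to 1.24), had an adjusted p of 0.53 in limma, and of the 8 members Pdia4 was the 1 past an unadjusted p under 0.05 in this direction (5.2% of features). Without vehicle-treated tumor 6 the cohort 2 difference was 0.83 (limma, adjusted p = 0.032), when 171 features passed instead of 0. Leaving out vehicle-treated tumor 5 gave its lowest value, 0.52. Pdia3 had 0.29 (SE 0.16) in cohort 2 and 0.00 (SE 0.16) in cohort 1, with levels of 2.72 to 3.11 in MNF tumors and 2.47 to 3.16 in vehicle tumors.

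The cochaperone Dnajc3 was at 2.82, 2.73 and 2.76 in the MNF tumors of cohort 2, with an SD of 0.046, and at 2.43, 2.26 and 2.63 in the vehicle tumors, without overlap. In cohort 1 it was at 2.48, 3.12 and 2.83 with MNF and at 3.17, 2.81 and 2.79 with vehicle, overlapping. Its difference was 0.33 (SE 0.17; limma, adjusted p = 0.52) in cohort 2 and -0.12 (SE 0.17) in cohort 1. Herpud1 spanned 1.71 to 2.41 with MNF and 1.45 to 2.56 with vehicle, and its difference was 0.27 (SE 0.17) in cohort 2 and 0.03 (SE 0.17) in cohort 1. Without overlap in cohort 2 were thus 3 of 8 members (6.38% of features), and in cohort 1 it was 1 of 8, Hspa5 (7.93% of features).

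Edem1 was the dimmest member. It was between -2.12 and -1.75 in MNF tumors (median -1.90) and between -2.29 and -2.04 in vehicle tumors (median -2.08). Its difference was 0.25 (SE 0.13) in cohort 1 and 0.12 (SE 0.13) in cohort 2, and 0.19 (SE 0.091; limma, adjusted p = 0.66; exact permutation test, p = 0.065) over both. With the scaling it ran from 0.078 to 0.36 in cohort 1 and from 0.090 to 0.25 over both, lowest with the deposited scores and highest after median centring. Its signals, 157 to 261, were dim for a detected probe, where the lowest signal of any probe was 60.1. By mean signal it was at rank 7731 of 22517.

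Between the cohorts, the vehicle tumors had differences in the members as large as those between MNF and vehicle. Compared with cohort 1, the vehicle tumors of cohort 2 were lower in 7 of 8 members (48.2% of features), by 0.35 (Calr) to 0.57 (Herpud1) log2 units, with a median of -0.40 against 0.01 for all features. These 7 each had an unadjusted p under 0.05 in limma (1.96% of features were lower at that threshold), none with an adjusted p under 0.05 (0.996 for each), and Edem1 had a difference of 0.06. Hspa5, Canx, Herpud1 and Dnajc3 did not overlap between the vehicle tumors of the cohorts (4 of 8, against 3.62% of features). The median of the members stayed between -0.44 and -0.38 under the 6 ways of scaling, and the 100 brightest features had medians of -0.02 to 0.05. Without vehicle-treated tumor 1, 4 or 5, the count at the unadjusted threshold was 3, 4 and 2 of 8. In MNF tumors the same comparison gave 2 of 8 members lower at that threshold, Hspa5 (-0.34) and Canx (-0.33), where 7.86% of features were. The other members lay between -0.34 and 0.19. The count of members at that threshold was 1 of 8 without MNF-treated tumor 1, 2 or 6 and 3 of 8 without MNF-treated tumor 3. After quantile normalization or neqc the Hspa5 value was -0.088 and -0.082, against -0.54 over all probes, and 1 of 8 members was lower at the threshold. The cohort 2 vehicle tumors enter both this comparison and the MNF difference of cohort 2, so the 2 are not independent: Pdia4, for example, averaged 2.20 and 1.71 in the vehicle tumors of cohorts 1 and 2, and 2.15 and 2.34 in the MNF tumors. Causes of the differences between the cohorts were not tested.

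**Figure D3:**
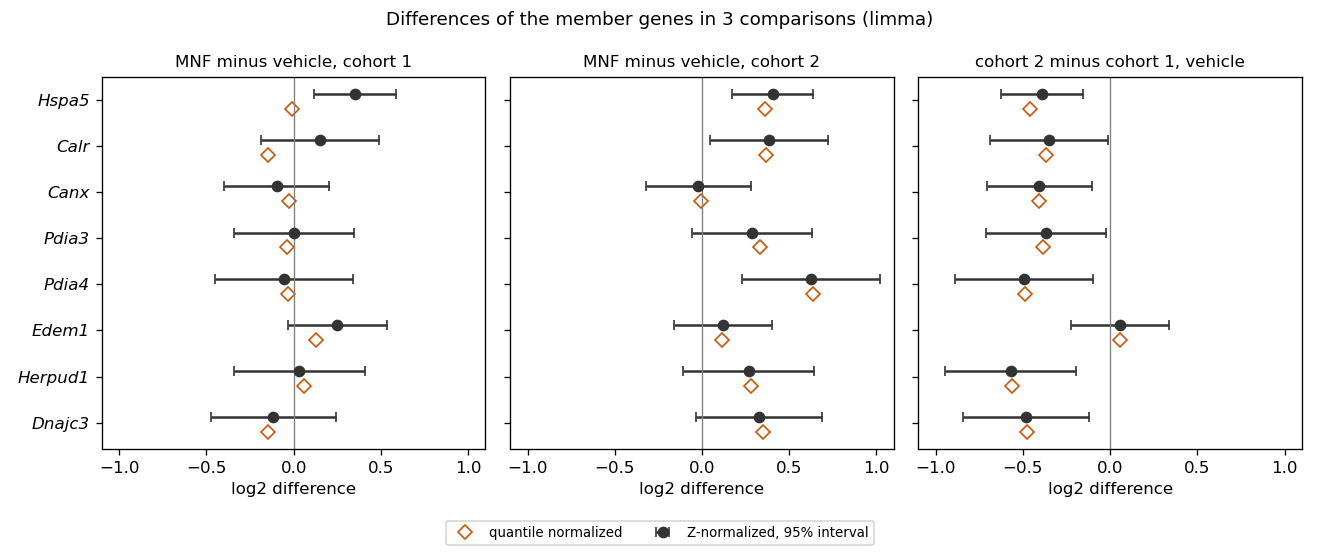
Log2 differences of the 8 members between MNF and vehicle in each cohort and between the vehicle tumors of the cohorts (black, Z-normalized, with 95% intervals; orange, quantile normalized). The values nearly coincide in the middle and right panels, while in cohort 1 those of Hspa5 and Calr are near or below 0 after quantile normalization.

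Apart from Edem1, the members varied together over the 12 tumors. All 21 pairs among the other 7 had a Pearson's r above 0 (0.34 to 0.91, median 0.62). With group and cohort means removed the median was 0.45, and Calr with Herpud1 (-0.036) and Hspa5 with Dnajc3 (-0.0094) were below 0. Pdia3 and Pdia4 were the closest pair (r = 0.91), followed by Hspa5 and Calr (0.82), and the 7 pairs with Edem1 had r from -0.23 to 0.42 (median -0.075). Once group and cohort means were removed, the median with Edem1 was -0.46, and its r was -0.53 with Calr, -0.50 with Dnajc3 and -0.49 with Pdia4. The points share their arrays and scaling, so these values are descriptive. They were computed with Z-normalization only, and no r between other features of like brightness was computed for comparison. Among 5502 named genes outside the members, those most like the mean of the 8 members over the 12 tumors were Nucb2 (r = 0.89), Creld2 (0.88), Stat3 (0.87), Rab5a (0.86) and Dnajb9 (0.86). Nucb2 encodes a calcium-binding protein, Creld2 an ER-resident protein, and Dnajb9 a J-domain cochaperone of Hspa5, while Stat3 is a transcription factor and Rab5a a GTPase of early endosomes.

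The other genes of the secretory pathway were mostly above 0 in cohort 2, and none passed an adjusted p under 0.05. Lists of them were run with Z-normalization only, under which the 100 brightest features had a median of 0.18 over both cohorts. Of 16 measured ER chaperones and disulfide enzymes outside the members (28 listed), 14 were above 0 in cohort 2 (median 0.21). In cohort 1, 7 were (median -0.04). Among all features, 48% were above 0 in cohort 2 and 50.1% in cohort 1. Over both cohorts, 2 of the 16 were higher at an unadjusted p under 0.05, against 3.22% of all features. These were P4hb, another disulfide isomerase, at 0.19 (SE 0.078; limma, adjusted p = 0.61), and Ppib, an ER cyclophilin, at 0.36 (SE 0.16). Manf, secreted under ER stress, was at 0.19 and Dnajb9 at 0.34 (0.59 in cohort 2). Of 14 measured genes of the translocon, signal peptidase and N-glycosylation (23 listed), 12 were above 0 in cohort 2 and 8 in cohort 1, with Ssr4, a subunit of the translocon-associated protein complex, at 0.26 and the signal peptidase subunit Sec11c at 0.25 over both, the 2 past that threshold. Srpra, the signal recognition particle receptor subunit, was at 0.27 and Spcs2, of the signal peptidase, at 0.20.

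Of 15 measured genes of ER-associated degradation (24 listed), 10 were above 0 in cohort 2 (48% of features) and 7 in cohort 1 (50.1%). Over both cohorts 0 had an unadjusted p under 0.05. Selenos, which binds the ATPase Vcp at the ER membrane, was at 0.28, Os9, a lectin of the ligase complex, at 0.24, Nploc4, a cofactor of Vcp, at 0.17 and Faf2 at -0.21. Of 12 measured sensors and factors of the unfolded protein response (16 listed), 9 were above 0 in cohort 2 (48% of features, list median 0.11). In cohort 1, 7 were (50.1% of features, list median 0.01). Over both cohorts 9 were above 0 (50.2% of features). At an unadjusted p under 0.05 in limma, 1 of the 12, Ppp1r15a, was higher, against 3.22% of all features. Ppp1r15a (GADD34), which directs dephosphorylation of eIF2alpha, was at 0.35 (SE 0.10; limma, adjusted p = 0.499), Atf4 at 0.25, Atf6b at -0.22 and Mbtps1, the protease that cleaves Atf6 first, at -0.14. Neither Ern1 nor Atf6 was detected on any array. Cytosolic and mitochondrial relatives of the members lay the other way in cohort 2: of 7 measured (14 listed), 2 were above 0 (median -0.28). In cohort 1 all 7 were (median 0.15). The shares of all features above 0 were 48% in cohort 2 and 50.1% in cohort 1. Over both cohorts Hspa9, the mitochondrial Hsp70, was at 0.13, Dnaja2 at 0.10, Hspe1, the mitochondrial Hsp10, at -0.08 (0.26 in cohort 1 and -0.41 in cohort 2), and Dnajb1 at -0.09.

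**Figure D4:**
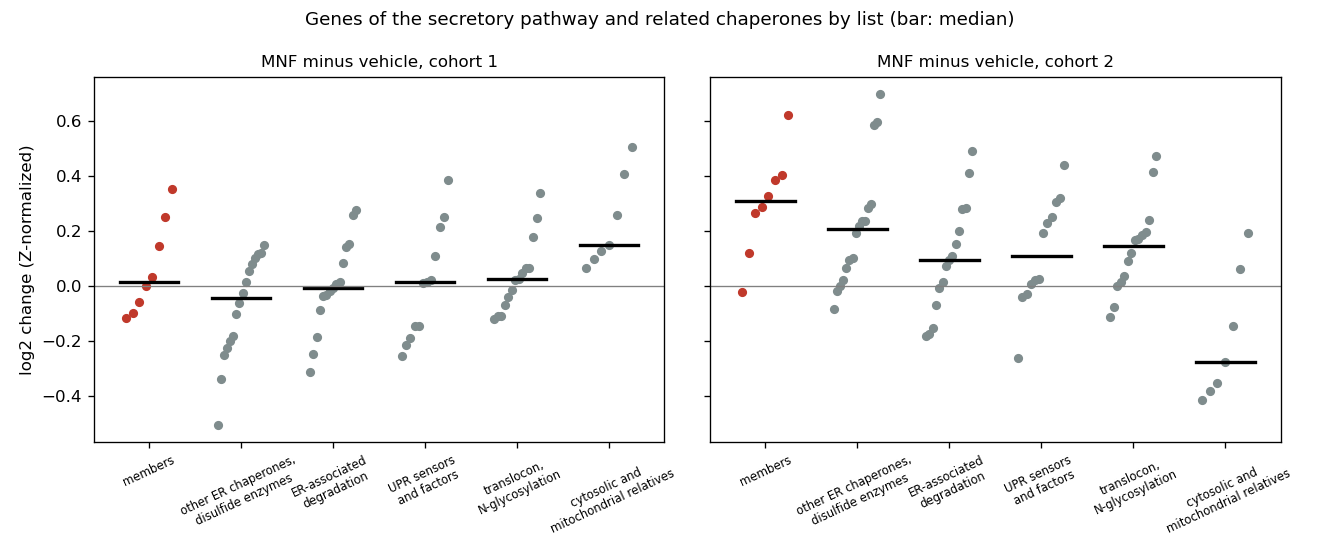
Log2 change with MNF of each measured gene by list in cohort 1 and cohort 2 (points; red, the 8 members; grey, other lists; black bars, medians). The members' median is 0.02 in cohort 1 and 0.31 in cohort 2, and that of the cytosolic and mitochondrial relatives is 0.15 and -0.28.

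Beyond the members, 32 genes had a type I or type II element in their promoter, and 9 of them were tested. Of these 9, 8 were above 0 over both cohorts (50.2% of features), with values from -0.03 to 0.30 and a median of 0.12. Their median was -0.04 in cohort 1 and 0.20 in cohort 2, against 0.00 and -0.01 for all features. Some of the 9, such as Creld2 and Xbp1, were already counted in the lists above. In limma 0 of the 9 had an unadjusted p under 0.05. The highest was Creld2 at 0.30 (SE 0.17), with -0.10 in cohort 1 and 0.70 in cohort 2, and Xbp1 was at 0.12. Among the members themselves, the 5 measured ones with an element had cohort 2 differences from -0.02 (Canx) to 0.40 (Hspa5). Of those without one in the window, Pdia4 was at 0.62 and Edem1 at 0.12 in cohort 2. A relation to the element was not tested.

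Tissue markers varied beside these results. Skeletal muscle probes were detected on all arrays for 4 of 12 listed markers, Acta1, Myl1, Tnnc2 and Eno3, and the summed signal of all 9 named markers was 1933 to 142274 in MNF tumors and 2065 to 57690 in vehicle tumors. Over both cohorts Acta1 was at 1.66, Myl1 at 1.86 and Tnnc2 at 1.97, none with an adjusted p under 0.05 in limma. Eno3 was at -0.06 and was left out of the mean used here. The mean level of Acta1, Myl1 and Tnnc2 in cohort 2 was 3.35 to 5.51 with MNF. It was -1.92, 3.95 and 3.36 in vehicle-treated tumors 4, 5 and 6. Pdia4 in those 3 vehicle tumors was 1.508, 1.504 and 2.124. With this mean as a covariate, Hspa5 over both cohorts was 0.34, Calr 0.25 and Pdia4 0.20 (0.28 without it) in limma, and 1 of 8 members, Hspa5, instead of 2 had an unadjusted p under 0.05. Red blood cell markers summed to 13442 to 77854 with MNF and 7173 to 40172 with vehicle (2 of 4 detected on all arrays, Alas2 on none), and their part in the results was not tested. Of the glial and C6 markers 7 of 10 were detected on all arrays, and the sum over the list was 24333 to 53312 with MNF and 44088 to 64376 with vehicle. Olig1, a transcription factor of the oligodendrocyte lineage, was at -0.75 over both cohorts (SE 0.19; limma, adjusted p = 0.499), -0.84 in cohort 1 and -0.66 in cohort 2, and the other 6 (Vim, Nes, S100b, Cspg4, Pdgfra and Sox10) lay between -0.060 and 0.078. The part of these markers in the members' results was not tested. Fibroblast and macrophage markers had 3 of 6 and 2 of 7 detected on all arrays, with sums of 6698 to 23087 and 1243 to 2182 in MNF tumors and of 9591 to 23136 and 1750 to 2514 in vehicle tumors, and endothelial markers 0 of 5. These sums are signals before normalization, which also follow the brightness of an array.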

How the data were processed

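RNA of 12 tumors was hybridized to Illumina RatRef-12 arrays and summarized by the authors with GenomeStudio 1.6.0, per the submitters' processing notes. For each array the deposited table holds the unnormalized signal intensity and detection p-value of 22517 probes. A second deposited table holds a Z score for 11080 of them, which differs by at most 0.0124 from a Z score computed from the log10 signals. Of the probes, 13259 have 1 gene symbol in the platform annotation, 0 have several and 9258 have none. All columns were assigned to a sample.

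Probes detected at p under 0.02 on every array (7677) were kept. Log2 signals were centred on each array's mean, divided by its SD and multiplied by the mean SD. This has the form of the study's Z-normalization but uses the kept probes, whereas the deposited scores are over all probes, an alternative here. The brightest probe stood for a gene (7620 features). limma 3.58.1 in R 4.3.3 (lmFit, eBayes) was fitted with cohort as a covariate, or with 4 groups for each cohort, with Benjamini-Hochberg adjustment over all features at 0.05. The z-test of the authors' program was not repeated. The steps were tested on simulated data. Replicates are separate mice, and precision is limited by having 6 arrays a group, 3 in each cohort. Treatment was also permuted exactly within cohorts for single members. No pair of arrays was a duplicate (highest correlation 0.994).

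The members and lists were chosen with earlier results of these data known, and no list was tested as a set. Named genes were all members, up to 4 genes of each related list with the smallest p over both cohorts, the 5 genes most correlated with the members' mean, and cell type markers. Creld2 and Xbp1 beside the promoter elements, Ern1 and Atf6 were named after their values were seen. Alternatives were other normalizations (all probes, quantile, neqc with an offset of 16, median centring), the authors' scores, filters, an offset of 50, every probe, covariates, array weights, a replicate block, single cohorts and leaving out each tumor. Numbers shared between the groups (replicates 1 to 6) do not mark a shared animal. Sequences are from RefSeq, and no protein sequences were used.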

Additional observations from a re-analysis of the deposited data

Results flagged for a closer look

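The MNF difference of Pdia4, a protein disulfide isomerase, was flagged because the 2 cohorts differed in it at an unadjusted p under 0.05 in limma's test of the difference itself. It was 0.68 log2 units larger in cohort 2 (adjusted p = 0.53), where the 3 MNF tumors were all above the 3 vehicle tumors, while in cohort 1 the groups overlapped. It lay between 0.57 and 0.89 when each tumor was left out in turn, and without MNF-treated tumor 3 or 4 or vehicle-treated tumor 1, 4 or 5 no member had an unadjusted p under 0.05 for this difference. Of 8 members tested for such a difference it was the 1 that was flagged, and it did not pass the adjustment. A rule on the gap to the next value flagged no tumor in any of the 16 sets of 6 member values examined. It pooled the cohorts, so a tumor apart within its own cohort can be missed. For Calr, vehicle-treated tumor 6 was at 5.09, against 4.69 and 4.48 in vehicle-treated tumors 4 and 5.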

How the results depend on the processing

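Over both cohorts no member passed an adjusted p under 0.05 in limma under any alternative run, and 0 features passed a Z ratio of 1.5 with an unadjusted p under 0.05 and a false discovery rate under 0.3, where the study asks for an adjusted p in place of the unadjusted one. Of 710 member values recomputed under alternatives, 682 kept their sign and their side of the threshold and 27 changed sign. The remaining 1, Pdia4 in cohort 2 without vehicle-treated tumor 6 (0.83), passed it. No member passed the threshold as reported, so keeping its side says little. For the difference between cohorts only Pdia4 was recomputed, and between MNF tumors of the cohorts only Hspa5 and Canx. These were the members past an unadjusted p under 0.05 in limma there, so members nearer to 0 are not in that count.

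Changes of sign were mostly in cohort 1. With quantile normalization and neqc, the cohort 1 differences were -0.011 and -0.013 for Hspa5, -0.15 and -0.15 for Calr, -0.040 and -0.044 for Pdia3, and -0.032 and -0.038 for the members' median. Median centring gave -0.064 for Pdia3, -0.0052 for Herpud1 and -0.034 for the median. Array quality weights gave -0.084 for Pdia3, -0.038 for Herpud1 and -0.055 for the median, and 0.055 for Canx in cohort 2. The members' median between MNF tumors of the cohorts was 0.0019 after quantile normalization. The cause was not tested.

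Leaving out each tumor gave ranges over both cohorts of -0.11 to 0.0048 for Canx. In cohort 1 the ranges were -0.22 to 0.037 for Canx, -0.27 to 0.049 for Dnajc3, -0.067 to 0.21 for Herpud1, -0.10 to 0.12 for Pdia3, -0.17 to 0.055 for Pdia4 and -0.081 to 0.13 for the median. Canx in cohort 2 ranged from -0.10 to 0.048, and Edem1 between vehicle tumors of the cohorts from -0.012 to 0.11. Features called ranged from 0 to 1 in cohort 1, from 0 to 171 in cohort 2 (171 without vehicle-treated tumor 6), from 0 to 50 for the difference between cohorts (50 without that tumor) and from 0 to 1 between MNF tumors. Array weights called 1 feature in cohort 1, 5 in cohort 2, 1 for the difference between cohorts and 263 between MNF tumors, and a fit on cohort 1 alone called 1.

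Replicate numbers did not mark shared animals, and deviations of same-numbered tumors correlated over 0.1 in 2 of 6 numbers. With the replicate block in place of cohort, 0 members and 0 features were called, Hspa5 was at 0.38, and 1 of 8 members instead of 2 had an unadjusted p under 0.05. Without both tumors numbered 1, on the dimmest and the brightest array, a choice made after seeing the data, the members' median was 0.25 and Hspa5 0.37. The members' median in cohort 2 and between the vehicle tumors kept its sign under every alternative run. Edem1, the dimmest member, is limited most by signal over background.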
